A study of Callithrix jacchus with 39 samples.

Results

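The kidney maps of a marmoset tissue series comprised 4 of its 31 ChIP libraries, chosen by the word Kidney in their titles: 2 libraries of H3K27ac and 2 of H3K4me3, numbered as replicates 1 and 2. Together they held 106522 of the 872404 regions called in all libraries. ChIP-seq of both marks had been done on 8 tissues of Callithrix jacchus, the common marmoset, with antibodies ab4729 against H3K27ac and ab8580 against H3K4me3. Kidney was compared, mark by mark, with colon, heart, liver, pancreas, skeletal muscle, spleen and stomach, which had 2 libraries per mark each, except heart with 1 H3K4me3 library, for 14 other H3K27ac and 13 other H3K4me3 libraries. The labels give the tissue and antibody of each library and no treatment, age, sex or strain, and leave it unstated whether replicates 1 and 2 came from different animals. The 8 input samples were not analysed here.

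H3K27ac is an acetylation of histone H3 found at active promoters and enhancers, whereas H3K4me3 is a methylation concentrated at promoters. An H3K27ac region without H3K4me3 nearby is therefore often read as an enhancer, the class of element that differs most between cell types. Kidney is a mixture of filtering glomeruli, the epithelia of successive tubule segments that reabsorb salts, glucose and amino acids, and vessels, stroma and resident blood cells. Its proximal tubule shares with liver many genes of transport and metabolism. In tissue samples of mixed cells, a region marked in a small share of cells and one marked weakly in most cells cannot be told apart. No region was assigned to a gene here, so marker genes of kidney were not examined and regions are given by position on the build calJac3.

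Kidney H3K27ac lists lay below the mean of the other tissues in number and median length of regions, but within their range. Its H3K4me3 lists were of middling size. The H3K27ac lists held 32794 regions in replicate 1 and 31674 in replicate 2, covering 22.1 Mb and 24.0 Mb, and the H3K4me3 lists held 21008 and 21046 regions, covering 20.2 Mb and 20.9 Mb. Kidney averaged 32234 H3K27ac regions per library, against 35847 ± 7222 in the 7 other tissues (SD, n = 7), and ranked 6 of 8. Its median H3K27ac region was 521.5 bp in replicate 1 and 578 bp in replicate 2, against 587 ± 43.1 bp in the other tissues (SD, n = 7). In H3K4me3 kidney ranked 4 of 8, with 21027 regions per library, against 20161 ± 1762 (SD, n = 7). Each comparison of kidney with the other tissues rests on 1 value per tissue, and an exact permutation of the kidney label over 8 tissues cannot give a two-sided p below 0.125. Of 20 such comparisons 1, the replicate overlap of promoter-like regions, reached that value. None of the 20 can therefore pass a threshold of 0.05, and ranks are given as descriptions.

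The kidney replicates gave near-equal H3K4me3 maps and less equal H3K27ac maps. H3K4me3 regions of replicate 1 were found in replicate 2 in 88.9% of cases and those of replicate 2 in replicate 1 in 87.6%, a mean of 88.3% that ranked 2 of the 7 tissues with replicates of this mark. H3K27ac regions overlapping H3K4me3 of either kidney library are called promoter-like, and the remainder enhancer-like, names that refer to this rule alone. Of enhancer-like regions 46.4% of those in replicate 1 and 53.5% of those in replicate 2 recurred, a mean of 49.98% in kidney, against 55.9 ± 7.25% in the other tissues (SD, n = 7). Of promoter-like regions 93.2% of those in replicate 1 and 78.5% of those in replicate 2 recurred. Their mean of 85.8% was the lowest of the 8 tissues, against 89.5 ± 0.90% in the other 7 (SD, n = 7; p = 0.125 by two-sided exact permutation, adjusted p = 0.967 over 21 tests). In replicate 2 3649 promoter-like regions had no counterpart in replicate 1, against 1052 in the opposite direction. Those 3649 regions had a median length of 459 bp, against 930 bp for the promoter-like regions of replicate 2 that recurred. Of the 3649, 96.6% lay in an H3K27ac region of another tissue, near the 98.1% of those that recurred. Of the 1052 regions of replicate 1 alone 84.0% did so.

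Replicate 2 of kidney H3K27ac lay closer than replicate 1 to all 7 other tissues. Likeness was measured by the Jaccard index, the length shared by 2 maps divided by the length in either. Averaged over the other tissues the index was 0.367 for replicate 2 and 0.294 for replicate 1, a difference of 0.0728 ± 0.0149 (SD over 7 tissues, which share the same pair of kidney libraries). It sets 1 library against 1 library and is given with no test. The difference was above 0 against 14 of 14 libraries. This contrast was chosen after the values were seen. It was the largest of its kind among the 8 tissues, ahead of 0.05002 in colon and 0.0469 in heart, where replicate 2 was also the closer one to all 7 other tissues. In H3K4me3 replicate 2 had 0.605 and replicate 1 had 0.606, with a mean difference of -0.000465 ± 0.00389 (SD over 7 tissues). Enhancer-like regions present in replicate 2 alone, 6845 in number, lay in another tissue in 78.3% of cases, close to the 78.7% of those present in both. The 9260 regions of replicate 1 alone did so in 53.4% of cases, against 79.5% of those present in both. Spleen, an organ of blood cells, held 44.5% of the regions of replicate 2 alone and 10.6% of those of replicate 1 alone. It was the one tissue that held a larger share of the regions of replicate 2 alone than of those in both replicates (35.4%). Unless a single library is named, the values that follow refer to regions found in both replicates, merged.

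Both kidney H3K27ac libraries shared 19945 regions spanning 21.7 Mb. Enhancer-like regions numbered 7154, or 35.9%, and promoter-like regions 12791, or 64.1%. The enhancer-like share was 39.6 ± 7.05% in the other tissues (SD, n = 7), and kidney ranked 6 of 8. In single libraries, which include regions not found in the other replicate, the share was 52.7% in replicate 1 and 46.5% in replicate 2. Enhancer-like regions were the shorter ones, with a median of 741 bp and quartiles of 566 and 1033 bp, against a median of 1065 bp and quartiles of 742 and 1518 bp for promoter-like regions. The longest enhancer-like region was 4506 bp and the longest promoter-like region 7707 bp. H3K4me3 was present in both kidney libraries at 11934 of the promoter-like regions, in replicate 1 alone at 507 and in replicate 2 alone at 350.

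Most enhancer-like regions of kidney lacked H3K4me3 in other tissues too, and most promoter-like ones carried it there. H3K4me3 of another tissue lay at 1513 enhancer-like regions, 21.1% of that class, and at 97.3% of promoter-like regions. At those 1513 regions kidney had acetylation without a called H3K4me3 region. Liver H3K4me3 covered most of them, 991 or 13.9% of all kidney enhancer-like regions, followed by colon (613) and skeletal muscle (487), and heart covered fewest (137, from 1 library). Of enhancer-like regions 16 had H3K4me3 in all 7 other tissues.

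A minority of kidney regions was found in kidney alone. Of its 19945 H3K27ac regions 1726, or 8.65%, met no H3K27ac region of the 14 other libraries and are called restricted. The same call over the 7 other tissues gave 13.8%. Enhancer-like regions supplied 1497 of them, 20.9% of that class, and promoter-like regions 229, 1.79% of that class. In the other tissues the restricted shares were 26.5 ± 15.05% and 2.27 ± 2.102% (SD, n = 7), and kidney ranked 5 of 8 in enhancer-like and 4 of 8 in promoter-like regions. By library, 5966 enhancer-like regions of replicate 1 (34.5%) and 3162 of replicate 2 (21.5%) were restricted, as were 428 (2.76%) and 384 (2.27%) promoter-like ones. When a region had to be present in both libraries of another tissue to count as shared, the restricted regions numbered 2664, and when regions of either kidney replicate were taken they numbered 7820. With replicate 2 left out, kidney stood above the mean of the other tissues in the enhancer-like restricted share, by 6.55 points, and without replicate 1 it did not. In both cases all regions of 1 kidney library stood against regions found in both replicates of the other tissues.

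**Figure D1:**
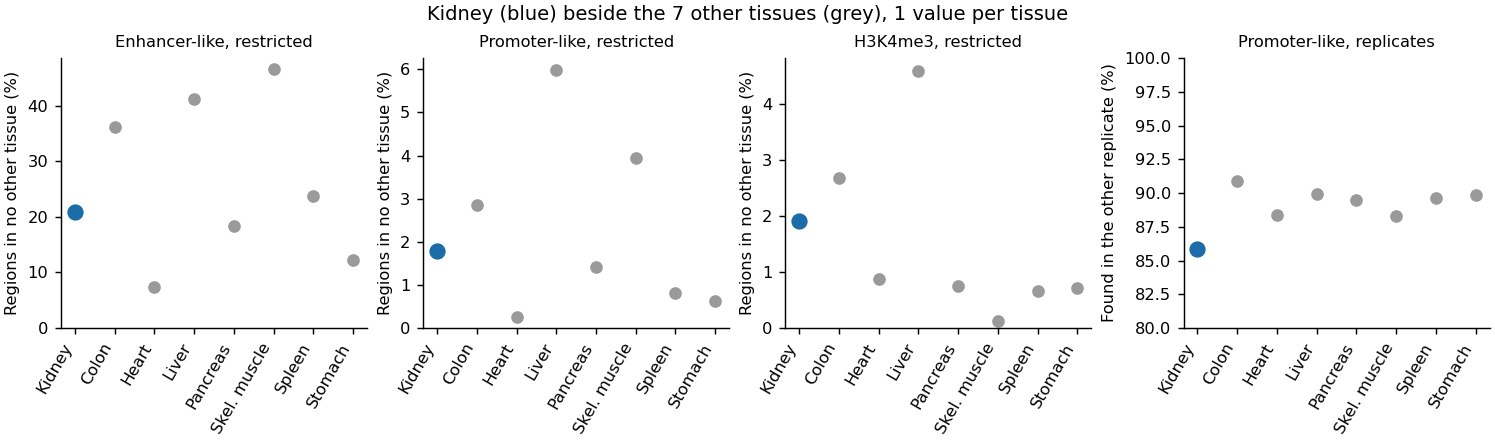
Share (%) of regions found in no other tissue for enhancer-like H3K27ac, promoter-like H3K27ac and H3K4me3 regions, and share of promoter-like regions found in the other replicate (axis from 80%), 1 point per tissue with kidney in blue on the left. Kidney lies inside the range of the other tissues in the first 3 panels (20.9%, 1.79% and 1.91%) and below it in the last (85.8%).

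The remaining enhancer-like regions of kidney were spread over all degrees of sharing, whereas promoter-like regions were nearly all common. Found in 1 other tissue were 1215 enhancer-like regions (16.98%), in 2 others 1001 (13.99%), in 3 others 818 (11.4%), and in all 7 others 607 (8.48%). Of promoter-like regions 9575, or 74.9%, were found in all 7 others and 1312, or 10.3%, in 6. Over both classes 10182 regions, 51.1% of all kidney H3K27ac regions, were found in all 7. Median length was 680 bp in restricted enhancer-like regions, 705 bp with 1 other tissue, 692 bp with 2 and 919 bp with all 7, so the widely found regions were the longest. An overlap of 1 bp is easier to reach for a long region, and the part of length in this order was not tested. At each step the enhancer-like share of kidney lay within 1 SD of the mean of the other tissues, which was 18.6 ± 4.46% for enhancer-like regions in 1 other tissue and 7.80 ± 6.55% in all 7 (SD, n = 7).

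**Figure D2:**
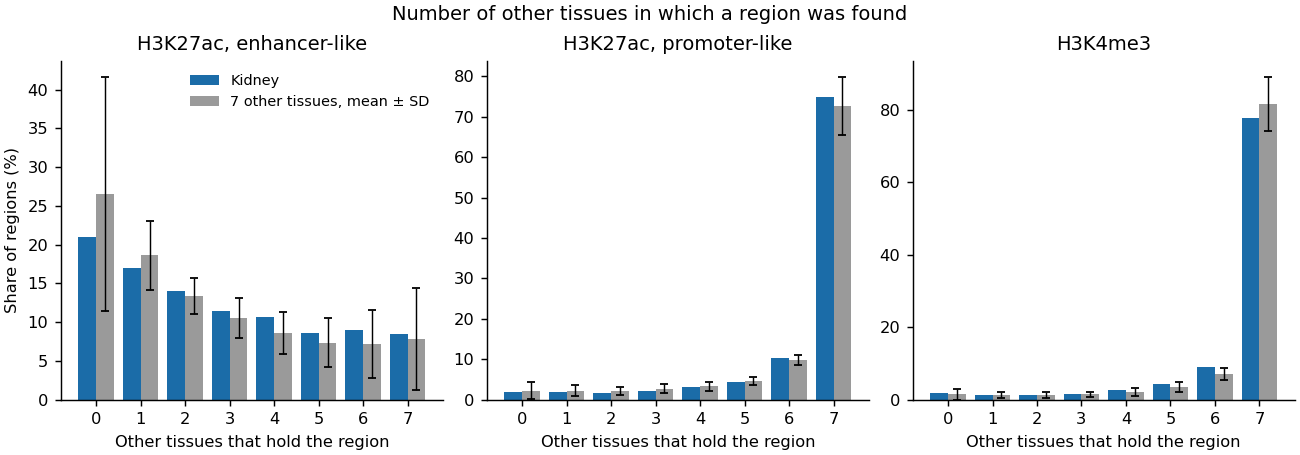
Share (%) of regions by the number of other tissues that hold them, for kidney (blue) and for the 7 other tissues treated alike (grey, mean ± SD). Enhancer-like regions of kidney fall from 20.9% in no other tissue to 8.48% in all 7, while 74.9% of promoter-like and 77.9% of H3K4me3 regions lie in all 7.

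Every other tissue held fewer of the enhancer-like than of the promoter-like regions of kidney. The shares found in a tissue differed by -50.5 ± 7.69 percentage points, enhancer-like minus promoter-like, and the difference was below 0 in 7 of 7 (SD over tissues; p = 0.015625 by exact permutation of signs, two-sided, adjusted p = 0.328, which fails the correction). The adjustment covers 21 comparisons, 20 of which could not reach a p that small, and the 7 values share the same kidney regions. By tissue the difference was -36.1 in liver, -45.5 in pancreas, -49.97 in spleen, -52.8 in colon, -54.1 in stomach, -55.4 in skeletal muscle and -59.3 in heart.

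Liver held more of the kidney enhancer-like regions than any other tissue. It held 58.8% of them, followed by pancreas (48.7%), stomach (37.7%), colon (36.4%), spleen (35.7%), heart (30.4%) and skeletal muscle (30.2%). By kidney library the liver share was 45.2% in replicate 1 and 52.6% in replicate 2. In single libraries the tissue after liver was pancreas in both replicates (34.0% and 44.8%), and spleen took the next place in replicate 2 alone (39.6%, against 22.8% in replicate 1). Promoter-like regions had a narrower range, from 85.6% in skeletal muscle and spleen to 94.9% in liver. Liver also had the longest H3K27ac lists, 48935.5 regions per library, and heart the shortest, 25639.5. The enhancer-like shares did not follow list length throughout. Skeletal muscle, with 36004 regions per library, held the smallest share, and stomach, with 31188, held more than colon, with 37863.5. With every list reduced to its 24590 longest regions, liver still held most enhancer-like regions, 50.7%, and pancreas 46.3%. Of promoter-like regions liver then held 91.99%, below pancreas (93.8%), stomach (92.9%) and heart (92.6%).

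Regions shared with a single other tissue were mostly shared with liver. Of the 1215 enhancer-like regions found in 1 other tissue, 608 or 50.04% lay in liver, 161 in pancreas, 156 in colon, 114 in skeletal muscle, 96 in spleen, 44 in heart and 36 in stomach. With lists of equal length liver had 396 of 886, or 44.7%. Promoter-like regions followed the same order at the top, with 119 of 239 in liver, 38 in pancreas and 30 in colon. The liver share of 50.04% compares with 25.3 ± 14.1% when each of the 6 tissues other than kidney and liver was treated alike (SD, n = 6). Kidney ranked 1 of 7, ahead of spleen at 43.1% (exact permutation test, p = 0.286; 7 tissues cannot give less than 0.143). Without kidney replicate 1 the kidney share was 40.4%, the excess over the other tissues fell to 13.5 points, against 24.7 with both replicates, kidney no longer ranked above spleen, and p was 0.714 by the same exact permutation. Without replicate 2 the share was 50.9%. Both values come from all regions of 1 kidney library, set against regions found in both replicates of the other tissues. Seen from liver, 867 of the 3215 liver enhancer-like regions with 1 other tissue lay in kidney. Among the 1001 kidney regions found in 2 other tissues, the pairs liver with pancreas (192), liver with colon (165), liver with spleen (111) and liver with skeletal muscle (103) led.

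Over whole maps another order appeared. The H3K27ac Jaccard index of kidney was 0.371 ± 0.045 with stomach, 0.369 ± 0.060 with heart, 0.361 ± 0.050 with pancreas, 0.323 ± 0.054 with spleen, 0.301 ± 0.047 with colon, 0.300 ± 0.033 with liver and 0.286 ± 0.037 with skeletal muscle (SD over 4 library pairs, which share libraries). The spreads of neighbours overlapped throughout. The index divides by the length in either map, and kidney maps covered 23.0 Mb on average, against 44.0 Mb in liver. Kidney replicates had 0.474 with each other, the lowest of the 8 tissues by a small margin over heart (0.475). The highest index of any kidney library with another tissue, 0.449 with heart, lay below both. In H3K4me3 the index was highest with stomach (0.661 ± 0.00463) and liver (0.622 ± 0.0240) and lowest with skeletal muscle (0.568 ± 0.0408), below the 0.728 of the kidney replicates in every case (SD over 4 pairs).

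**Figure D3:**
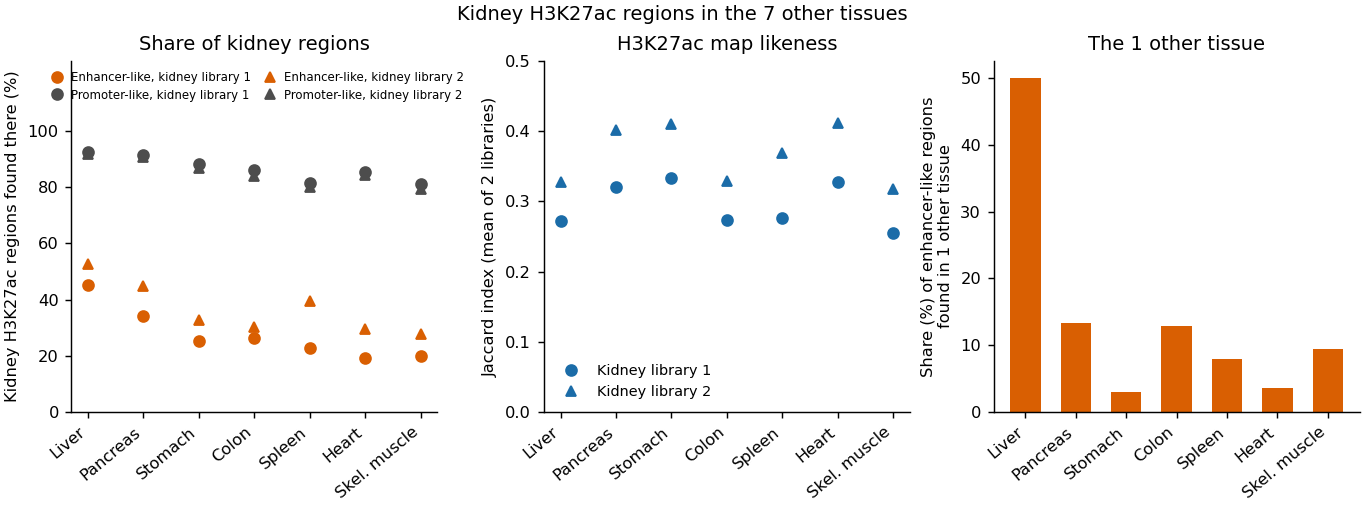
Left, share (%) of the H3K27ac regions of each kidney library found in each other tissue, by class. Middle, mean Jaccard index of each kidney library with the 2 H3K27ac libraries of each tissue, higher for kidney library 2 in all 7. Right, share (%) of kidney enhancer-like regions found in 1 other tissue by that tissue, with liver at 50.04%.

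Restricted enhancer-like regions were shorter than shared ones and lay farther from promoter marks. They measured 680 bp at the median, against 761 bp in shared regions, and 1.002% of them reached 2 kb, against 3.54%. The difference of -81 bp was the smallest among the 8 tissues, where the other 7 had -140 ± 37.4 bp (SD, n = 7; exact permutation test, p = 0.25). In single kidney libraries the medians were 406 bp for restricted and 463 bp for shared regions in replicate 1, and 387 bp and 455 bp in replicate 2. The median distance to the nearest kidney H3K4me3 region was 38.0 kb for restricted and 20.2 kb for shared enhancer-like regions. By library it was 46.4 kb and 22.1 kb in replicate 1, and 37.6 kb and 18.6 kb in replicate 2. The excess of 17.8 kb was like that of the other tissues (17.1 ± 9.36 kb, SD, n = 7).

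The restricted share grew with distance from H3K4me3. It was 12.4% of the 1057 enhancer-like regions under 2 kb away, 14.1% at 2 to 10 kb, 21.9% at 10 to 50 kb, 25.6% at 50 to 200 kb and 33.0% of the 543 regions farther away or on a sequence with no kidney H3K4me3. Enhancer-like regions found in all 7 other tissues showed the reverse, with 36.9% of 607 lying under 2 kb from kidney H3K4me3. Over all enhancer-like regions 34.1% lay more than 50 kb away, the second highest share of the 8 tissues, against 31.8 ± 2.38% in the others (SD, n = 7).

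**Figure D4:**
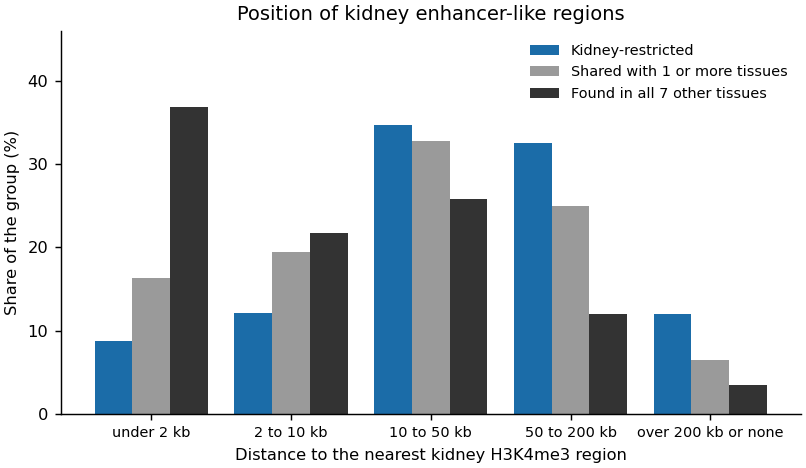
Share (%) of kidney enhancer-like regions by distance to the nearest kidney H3K4me3 region, for restricted (blue), shared (grey) and universally found regions (dark). Under 2 kb lie 8.75% of restricted, 16.4% of shared and 36.9% of universal regions, and over 200 kb 11.96%, 6.43% and 3.46%.

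A narrow majority of kidney enhancer-like regions had no other enhancer-like region close by. Promoter-like regions were left out of this joining, so an enhancer-like region beside one could count as single. With all 19945 H3K27ac regions joined in the same way, 8919 were single. Joined where gaps were at most 12 kb, the 7154 regions formed 5057 units, of which 3616 were single regions and 448 held 3 or more, with 8 at most. Regions in units of 3 or more made up 21.7% of the class, rank 7 of 8, against 27.4 ± 7.03% in the other tissues (SD, n = 7). The share was 37.6% without kidney replicate 1 and 37.7% without replicate 2, above the other tissues by 10.1 and 10.2 points. These excesses compare unlike sets, all regions of 1 kidney library against regions found in both replicates of the other tissues. With regions of either replicate the share was 43.1%. Among regions found in both replicates, restricted ones were in units of 3 or more in 19.8% of cases, against 22.2% of shared ones. The 1726 restricted regions of both classes formed 1344 units, among them 1054 single regions, 224 pairs and 66 units of 3 or more.

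The H3K4me3 maps of kidney were almost wholly shared. Of 17355 H3K4me3 regions found in both replicates 13521, or 77.9%, lay in all 7 other tissues, and 331, or 1.91%, lay in none. The same call gave 1.57% over the 7 other tissues, and kidney ranked 3 of 8. By library 831 regions of replicate 1 (3.96%) and 761 of replicate 2 (3.62%) were restricted. The restricted regions had a median length of 826 bp, against 1250 bp for those in all 7 others. Kidney acetylation accompanied 250 of the 331 restricted H3K4me3 regions, and at 157 of them acetylation was found in kidney alone. Another 68 had no H3K27ac in any tissue. H3K4me3 regions of 4 kb or more numbered 63 in kidney, 0.363% of its regions, and ranged from 5 in heart (1 library) to 127 in liver. Both marks coincided at all 63 in at least 1 kidney H3K27ac library, and 0 of them were restricted.

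A sizeable part of the H3K4me3 regions lacked acetylation in kidney. H3K27ac of neither kidney library lay at 3265 of them, 18.8%, against 15.2 ± 4.58% in the other tissues (SD, n = 7), rank 3 of 8. The share was 28.0% without kidney replicate 1 and 36.9% without replicate 2, where 1 library of each mark was left and its regions were taken whole. With lists of equal length it was 16.004%, or -0.216 points from the mean of the others. The 3265 regions were shorter, with a median of 738 bp, against 1238 bp for those with kidney H3K27ac. Of the 3265, 1541 carried H3K4me3 in all 7 other tissues. Acetylation of another tissue lay at 71.5% of them, against 98.3% of the H3K4me3 regions with kidney H3K27ac. Liver acetylated the largest share of the 3265, 1562 or 47.8%, then pancreas (35.4%), colon (31.8%), stomach (27.5%), heart (25.02%), skeletal muscle (24.6%) and spleen (15.8%). Liver, pancreas and colon also had the longest H3K27ac lists, with 48935.5, 38059 and 37863.5 regions per library. The part of list length in this order was not tested. No H3K27ac was found in any tissue at 932.

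Promoter-like regions acetylated in kidney alone were mostly marked by H3K4me3 in kidney alone as well. Of the 229 restricted promoter-like regions 182 (79.5%) had no H3K4me3 in another tissue and 47 (20.5%) had it. H3K4me3 stood in both kidney libraries at 157 of the 229, in replicate 1 alone at 47 and in replicate 2 alone at 25. Against them, 98.8% of the shared promoter-like regions carried H3K4me3 elsewhere. Among 9055 kidney regions with H3K4me3 in every one of the 15 H3K4me3 libraries, 8215 (90.7%) were acetylated in all 7 other tissues and 4 in kidney alone. The 3 longest of these 4 lay at chromosome 4, 18210540 to 18211623, at chromosome 3, 7348114 to 7349187, and at chromosome 15, 19669321 to 19670034. In the first, H3K27ac covered 0.834 kb in kidney replicate 1 and 0.976 kb in replicate 2, in the second 0.887 kb and 1.07 kb, and in the third 0.503 kb and 0.690 kb, with 0 of 14 other libraries positive in each.

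Few stretches common to the other tissues were missing from kidney. Base positions acetylated in all 14 other libraries formed 10106 stretches, of which 30, or 0.297%, were met by no kidney region. The 7 other tissues treated alike missed 1.31 ± 1.49% (SD, n = 7), from 0.061% in pancreas to 4.26% in skeletal muscle. With kidney replicate 1 as the only kidney library 5.60% were missing, and with replicate 2 alone 0.633%. These values need absence from 1 library, whereas the others need absence from both libraries of a tissue, so the sets differ in kind. The missing stretches were short, with a median of 133 bp, against 441 bp for those present. Kidney H3K4me3 lay at 25 of the 30 (83.3%), a smaller share than the 96.2% of those present. The longest, at chromosome 16, 49920572 to 49920978, had 0.378 kb of H3K4me3 in kidney replicate 2 and none in replicate 1. The next, at chromosome 18, 31968868 to 31969224, and at chromosome 1, 192200475 to 192200799, were covered by H3K4me3 over their whole length in both kidney libraries.

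The largest units of kidney-restricted regions covered 5 to 8 kb and often held promoter-like regions. Since restriction chose them, the lack of H3K27ac elsewhere within their regions is no test. The first, at chromosome 12, 29472894 to 29486603, held 7 regions, 2 of them promoter-like. H3K27ac covered 7.55 kb of its 13.7 kb span in kidney replicate 1 and 6.34 kb in replicate 2, H3K4me3 covered 1.17 kb and 1.09 kb, and neither mark was found there in any other tissue. The fifth, at chromosome 4, 161325982 to 161332696, likewise lacked both marks in other tissues. Its H3K27ac covered 4.99 kb and 4.26 kb and its H3K4me3 3.25 kb and 2.73 kb in the kidney replicates. The seventh, at chromosome 10, 36383350 to 36390875, was the one of the first 8 with no H3K4me3 in kidney or elsewhere. It was acetylated over 6.19 kb in replicate 1 and 2.42 kb in replicate 2, the widest gap between replicates among the 8.

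**Figure D5:**
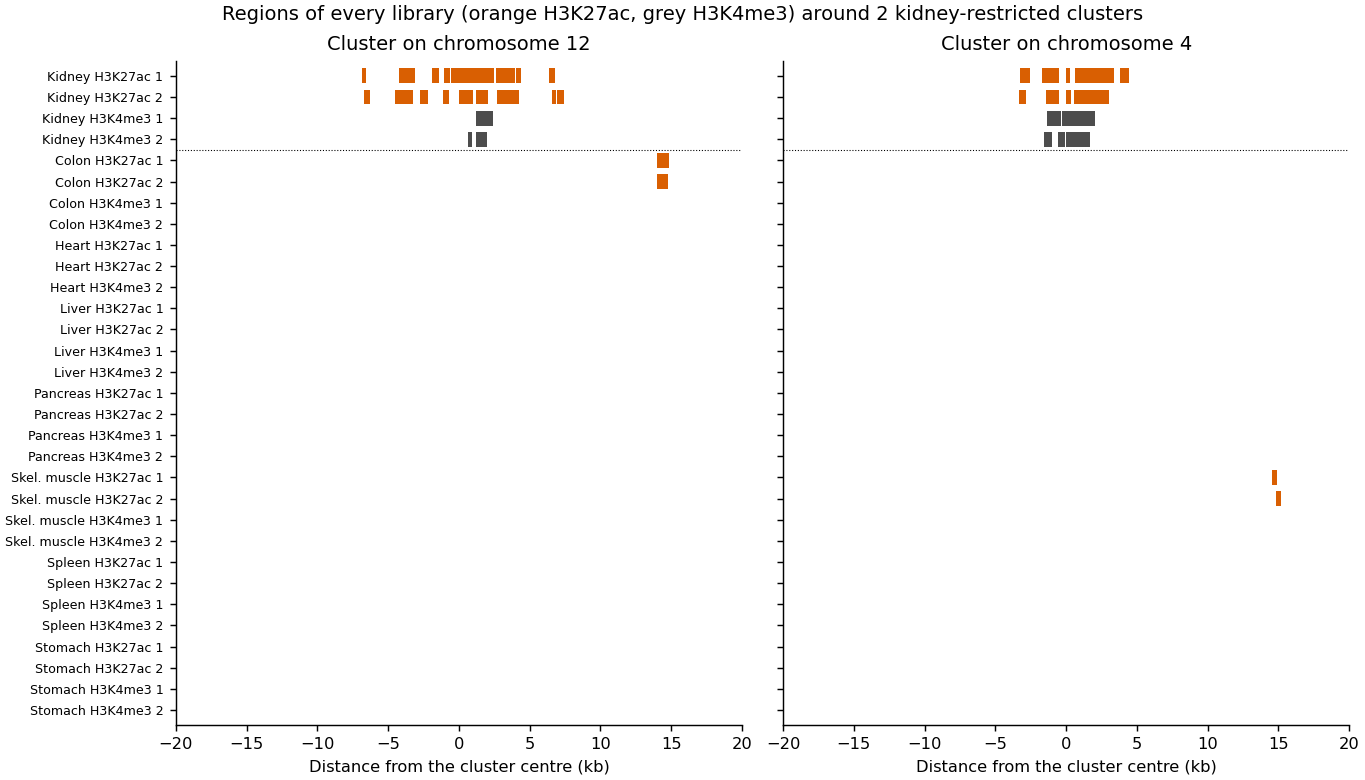
Called regions of all 31 libraries (orange H3K27ac, grey H3K4me3) within 20 kb of the centres of the kidney-restricted clusters on chromosome 12 (left) and chromosome 4 (right), with kidney above the dotted line. No region of another tissue lies inside either cluster, and those within 20 kb are H3K27ac of colon (left) and of skeletal muscle (right).

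Other large units held marks of other tissues within their span. The unit at chromosome 7, 152601484 to 152611265, had 5.32 kb and 5.87 kb of H3K27ac in the kidney replicates and 1.07 kb in 1 pancreas library. At chromosome 11, 33470959 to 33481673, kidney had 4.72 kb and 5.94 kb of H3K27ac and 3.03 kb and 3.71 kb of H3K4me3, H3K4me3 of other tissues was absent, and 5 other H3K27ac libraries had up to 0.890 kb. At chromosome 14, 17973509 to 17982163, kidney H3K27ac covered 4.77 kb and 4.96 kb, and 4 other H3K4me3 libraries reached 1.13 kb. At chromosome 15, 22521916 to 22531888, kidney H3K27ac covered 8.56 kb and 7.08 kb, with 2 other H3K27ac libraries (up to 0.883 kb) and 12 other H3K4me3 libraries (up to 2.03 kb) positive. The eighth, at chromosome 14, 9495980 to 9511664, had 3.14 kb and 5.48 kb of H3K27ac in kidney and H3K4me3 in 11 other libraries (up to 1.64 kb).

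Single H3K27ac regions with H3K4me3 in kidney and neither mark elsewhere were at most about 3 kb long. The longest lay at chromosome 11, 33020622 to 33023849, with 2.98 kb and 2.51 kb of H3K27ac in the kidney replicates, but H3K4me3 in replicate 1 alone (0.306 kb). Those at chromosome 6, 121708497 to 121711564, and chromosome 4, 169760023 to 169762956, also had H3K4me3 in replicate 1 alone (0.534 kb and 1.12 kb). The region at chromosome 4, 161329907 to 161332696, inside the fifth unit above, had it in both (1.44 kb and 1.09 kb), as did that at chromosome 7, 77418686 to 77421165 (0.319 kb and 0.533 kb).

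The longest H3K4me3 regions of kidney alone were acetylated in kidney over part of their length. H3K27ac was measured inside these regions only, so its full extent is not compared. At chromosome 1, 101335926 to 101339855, H3K4me3 covered 3.32 kb and 3.86 kb in the kidney replicates and H3K27ac 0.628 kb and 0.482 kb, and 2 H3K27ac libraries of other tissues were positive, up to 1.12 kb in skeletal muscle. At chromosome 21, 42192615 to 42196379, H3K4me3 covered 3.22 kb and 3.73 kb and H3K27ac 0.792 kb and 1.23 kb, with no mark elsewhere. The region at chromosome 15, 27730013 to 27733528, had 3.39 kb and 3.36 kb of H3K4me3 and 1.01 kb and 0.467 kb of H3K27ac, with 0.304 kb of H3K27ac in 1 liver library. In the other two, at chromosome 4, 161327771 to 161331342 and 161923992 to 161927454, acetylation covered 2.79 kb and 2.72 kb, and 2.66 kb and 2.63 kb.

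The widest stretches of kidney acetylation also held H3K27ac in other tissues. When all 19945 regions were joined within 12 kb, the unit with most acetylation lay at chromosome 11, 16535480 to 16558235, with 11.3 kb and 13.2 kb in the kidney replicates and H3K27ac in 14 of 14 other libraries, up to 14.2 kb in skeletal muscle. The second, at chromosome 11, 15406421 to 15427280, had 11.4 kb and 11.2 kb in kidney, at most 6.58 kb in any of 11 other positive libraries, and 4.03 kb and 5.35 kb of kidney H3K4me3, against at most 0.377 kb elsewhere. The third, at chromosome 8, 28526567 to 28558249, held 13 regions, of which 2 were restricted, with 9.89 kb and 12.6 kb in kidney. Of the 5 largest, the fourth lay on an unplaced sequence and the fifth, at chromosome 12, 48616402 to 48630671, consisted of 5 promoter-like regions with H3K27ac in all 14 other libraries.

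Kidney-restricted regions were widely spread, with a few dense windows. Of 2647 windows of 1 Mb with a kidney region, 954 held a restricted one, 549 held exactly 1 and 35 held 5 or more. The densest window, chromosome 11 from 33000001 to 34000000, had 16 restricted regions among 20, 8 enhancer-like and 8 promoter-like, with 3 of the H3K4me3 regions found in kidney alone. It contains the fourth restricted unit and the longest kidney-only promoter-like region named above. The window at chromosome 4, 169000001 to 170000000, had 10 of 14, and the one at chromosome 12, 105000001 to 106000000, had 9 of 13. A window on chromosome 6, 136000001 to 137000000, tied with the last at 9 of 12.

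Kidney regions were unevenly spread over chromosomes. Chromosome 22 was the densest chromosome with 20.6 kidney H3K27ac regions per Mb (up to the last region called there), of which 26.4% were enhancer-like and 8.27% of those restricted, the lowest restricted share of the autosomes. Chromosome X had 2.85 per Mb and chromosome 3 had 4.18. Other tissues were uneven too. Chromosome 22 held 3.72% of the kidney enhancer-like regions, against 3.97 ± 1.02% in the other tissues, and chromosome X 1.19%, against 1.45 ± 0.285% (SD, n = 7). The restricted share of enhancer-like regions was highest on chromosome 14 (30.9%, 87 of 282), chromosome 6 (29.6%, 98 of 331) and chromosome 4 (29.5%, 103 of 349).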

How the data were processed

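ChIP-seq peak lists of H3K27ac and H3K4me3 were taken as the authors deposited them, 1 narrowPeak list per library, so peaks were called per sample. Bedtools 2.26, MACS2 2.1.1.20160309, Bowtie 1.1.2 and SAMtools 1.3.1 appear in the submitters' processing notes with no role, and peak names in the files give the build calJac3. The sources used here do not give the use made of the input samples. Only chromosome, start and end of the deposited peaks were read. Depth is unknown: no interval that needs it is given, and a region is absent from a list only in that no peak was called.

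Titles gave the tissue, mark and replicate number. Overlap meant at least 1 bp. Regions found in both replicates were regions of one replicate that met a region of the other, in both directions, then merged. The single heart H3K4me3 list stood as it was. Kidney was set against the 7 other tissues with 1 value per tissue by exact permutation of the kidney label, and classes were compared over the 7 tissues by exact sign-flip permutation, two-sided, with Benjamini-Hochberg adjustment over 21 comparisons. P-values measure the spread between these tissues, not between animals. Restricted regions were joined into units over gaps of at most 12 kb. Alternatives are described in the closing section. Python 3.11.15, numpy 2.4.6 and matplotlib 3.10.9 were used. The code was tested on simulated data.

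Named regions are the longest or largest of each kind by fixed rules: 8 restricted units, 5 kidney-only regions per mark, 3 constant promoters acetylated in kidney alone, 3 missing stretches, 5 stitched units and 3 windows of 1 Mb. The comparisons, lists and rules were chosen with earlier results of these data known. The kidney and liver sharing of single-partner regions and the contrast of kidney replicates were added after the values were seen. Planned gene lists and tissue markers were not examined, because the gene coordinates supplied belong to a different assembly, and no sequence is shown because no calJac3 genome was used here.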

Additional observations from a re-analysis of the deposited data

Results flagged for a closer look

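The kidney replicates differed more in their likeness to other tissues in H3K27ac than in H3K4me3. Replicate 2 exceeded replicate 1 by 0.0728 in mean Jaccard index for H3K27ac and by -0.000465 for H3K4me3, and the marks differed by 0.0732 ± 0.0163 in this contrast, above 0 with 7 of 7 tissues (SD over tissues). The tissues share the same kidney libraries, each mark sets 1 library against 1 library, and the contrast was chosen after the values were seen, so no p is given. Gaps with one sign against all 7 tissues also occurred between replicates of colon, heart, skeletal muscle and stomach in H3K27ac and of liver and spleen in H3K4me3. In H3K27ac replicate 2 covered 24.0 Mb in 31674 regions and replicate 1 covered 22.1 Mb in 32794 regions, and the part of these lengths in the contrast was not tested.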

How the results depend on the processing

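Values here are kidney minus the mean of the other tissues, unless they are numbers of regions. Apart from leaving out a replicate, 137 values were computed for 21 planned results, and 7 of them turned the direction. The other 130 include 17 that were identical to the reported value, and 20 of the 21 results cannot pass the threshold under any setting. With lists of equal length the share of H3K4me3 regions without H3K27ac was -0.216 points and the restricted minus shared share in units of 3 or more was 0.847 points. The restricted share of H3K4me3 regions was -1.51 points with regions of either replicate and -0.0491 points when restriction was set against regions of both replicates. With H3K4me3 required in every library of a tissue, the restricted share of promoter-like regions was 0.282 points and the restricted minus shared distance was -1.83 kb. Kidney-restricted H3K27ac regions numbered 7820 and H3K4me3 regions 1098 with regions of either replicate, and 2664 and 593 with restriction set against regions of both. The cause was not tested in any of these.

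The labels do not say whether equal replicate numbers pair libraries of different tissues. Correlations of replicate deviations between kidney and each other tissue lay between -0.00437 and 0.0421 in H3K27ac. In H3K4me3 they lay between 0.0205 and 0.0592. They rest on called regions alone and cannot exclude a pairing. With the replicate number as a block, the restricted share of H3K4me3 regions was -0.150 points, and restricted regions numbered 5942 in H3K27ac and 1125 in H3K4me3. Replicate overlap has no value under the block.

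Replicates of a tissue were left out 1 at a time, the H3K27ac and the H3K4me3 library together. Ranges crossed 0 for the enhancer-like share (-7.66 to 15.1 points) and the stretches missing (-1.84 to 4.28). Ranges crossed it too for the restricted shares of enhancer-like (-8.30 to 6.55), promoter-like (-0.959 to 0.106) and H3K4me3 regions (-1.10 to 2.44). They also did for the mean H3K27ac Jaccard index (-0.0104 to 0.0520), the share in units of 3 or more (-8.88 to 10.2 points) and the restricted minus shared distance (-1.69 to 11.4 kb). Restricted regions numbered 1736 to 6394 in H3K27ac and 331 to 831 in H3K4me3, the highest without kidney replicate 2. With a kidney replicate left out, regions of 1 kidney library per mark stood against regions found in both libraries of other tissues. The sets compared therefore differ in kind. The single H3K4me3 library of heart was kept throughout.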
